A study of Mus musculus with 8 samples.

Results

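The Zfp genes examined here are mouse zinc finger genes whose symbol is Zfp followed by digits, leaving out Zfp36, which encodes an RNA-binding protein of another finger type. Of 34980 genes in the files, 331 carried such a symbol, and 240 of them were kept because their most abundant transcript had 500 or more counts summed over 6 libraries. Another 91 fell below that total, 10 of them with no count at all. The members were thus chosen by total count, so their abundance is a description. Just inside the threshold were Zfp691 with 507 and Zfp593 with 503 counts, and just outside it Zfp300 with 498 and Zfp213 with 496. All 240 members passed the later filter on low counts, and the smallest count of any member in any library was 46.

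Most Zfp genes encode proteins with C2H2 zinc fingers, short folds held by a zinc ion that are usually repeated in tandem and read DNA bases. Many also carry a KRAB domain, which recruits the corepressor TRIM28 and, through it, enzymes that build heterochromatin, often at transposable elements. KRAB genes have multiplied by local duplication and lie in clusters on a few chromosomes. In the brain, members of the family are studied in neurogenesis, imprinting and the silencing of retroelements.

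Total RNA was sequenced from layer IV of the visual cortex, cut out by hand from mice of strain B6D2. Wild-type mice (Otx2 +/+) were sampled at postnatal day 30 (P30) and at P100, and mice heterozygous for Otx2 (Otx2 +/- in the sample labels, Otx2 +/GFP in the design text) at P30. Otx2 is a homeodomain factor that reaches cortical cells from elsewhere, the choroid plexus among its sources. Every group had 2 libraries, with tissue of 4 mice pooled per condition, and the labels do not say whether the 2 came from separate pools, so the p-values cover only the spread between such libraries, and that may be technical. Heterozygous P100 tissue was not analysed here.

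Before the members are described, some features of the libraries matter. Gene-level totals ran from 11016841 to 15308781 counts. Otx2 itself had 0 counts in 5 libraries, which allows up to 3 counts in each by counting error, and 73 in heterozygous replicate 2, so it could not check the genotype labels. That library also held 8966 counts of Ttr, an abundant choroid plexus transcript, against 0 or 1 elsewhere. The heterozygous libraries had 11708 and 14200 Xist counts and 37 and 16 of the Y-linked Ddx3y, whereas the wild-type libraries had 3 to 7 and 1656 to 2128. Genotype and the sex of the pooled mice therefore cannot be told apart. All 6 layer IV markers were detected in every group, with summed levels of 1777 and 1894 CPM in P30 wild type, 1625 and 1664 CPM in P100 wild type and 1583 and 1645 CPM in P30 heterozygotes. Of these, 1 was higher and 2 lower with age and 1 lower with genotype. In heterozygotes against P30 wild type the median log2 difference was -0.30 for layer IV markers. It was 0.50 for 3 layer 5 markers (1 called higher) and 0.34 for 4 layer 6 markers (none called), all above 0. Against P100 wild type the medians were -0.26, 0.55 and 0.75, with 3 of the 4 layer 6 markers above 0. The part of neighbouring layers in the members' differences was not tested.

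Members differed widely in level. On the scale of CPM per kilobase of transcript, the median member stood at 7.37 and the highest, Zfp365, which encodes a centrosomal protein that binds DISC1, at 166. Zfp644, a partner of the G9a and GLP histone methyltransferases, followed at 74.9, then Zfp445, a KRAB factor that maintains imprints, at 55.3 and the spindle protein gene Zfp207 at 54.6. The last of the 240 was Zfp41 at 0.745 CPM per kilobase. In TMM-scaled CPM, not corrected for length, Zfp365 read 702 and 746 in P30 wild type, 688 and 704 in P100 wild type, and 697 and 716 in P30 heterozygotes. These ranges overlapped, and the most abundant member passed no test.

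Coding sequences were found for 239 members. A pattern for the KRAB A box was present in 110 and absent in 129, and 226 had at least 2 C2H2 finger patterns. The median number of fingers was 10, with 12 in members with the KRAB pattern and 9 in those without, and a maximum of 40. The annotated longest coding sequence of each gene was read, so a KRAB domain outside that model would be missed. It need not belong to the transcript counted, which may lack the KRAB box or some fingers.

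The first comparison set wild-type P100 against wild-type P30 and asked which members differ between adult and juvenile tissue. More members passed the test upward than downward. Members together took 0.964% and 0.976% of gene counts in P30 wild type, 1.07% and 1.08% in P100 wild type, and 1.01% and 1.00% in P30 heterozygotes. Of 240 members, 32 (13.3%) rose and 2 (0.833%) fell with age (quasi-likelihood test in edgeR, Benjamini-Hochberg adjusted p under 0.05 over 15841 genes). Among all tested genes the share was 3.0% higher and 4.54% lower. Among the 10924 tested genes that reached the same total of 500 counts it was 3.61% higher and 5.88% lower.

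The difference was small for most members. Their median log2 difference was 0.12, against 0.00056 for all tested genes, and 162 of 240 were above 0. In 119 members (49.6%) both P100 libraries lay above both P30 libraries, and in 27 (11.2%) both lay below, where all tested genes gave 25.5% and 25.7%. In bulk tissue fewer cells of a type and less RNA per cell cannot be told apart. Myelinating oligodendrocyte markers moved in the same libraries. Of 10, 9 were called lower at P100, and in all 10 both P100 libraries lay below both P30 libraries. Their summed level was 3190 to 3315 CPM in P30 wild type, 1563 to 1851 CPM in P100 wild type and 2291 to 2352 CPM in P30 heterozygotes. All 12 activity-regulated genes were also lower at P100, with summed levels of 2519 and 3038 CPM in P30 wild type and of 513 and 609 CPM in P100 wild type. The part of either list in the members' difference was not tested.

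**Figure D1:**
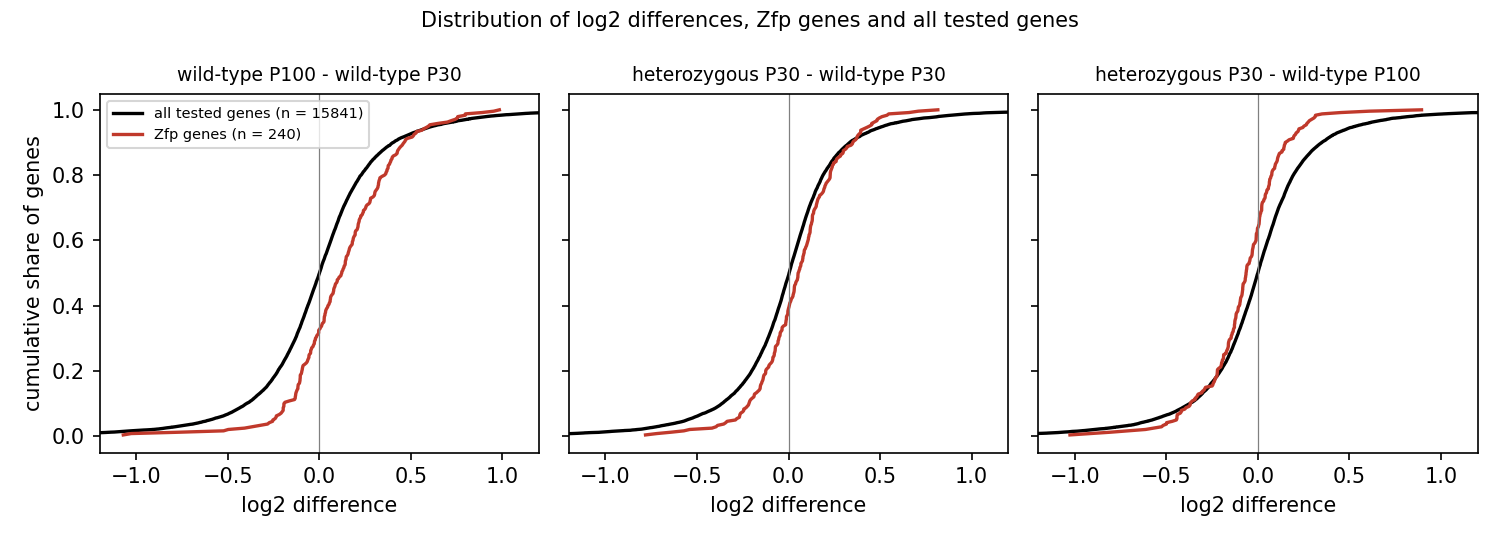
Cumulative share of genes (y axis) by log2 difference (x axis) for 240 Zfp genes (red) and all 15841 tested genes (black), in the 3 comparisons, each over 2 libraries a group. At P100 against P30 in wild type the red curve lies to the right, with a median of 0.12 against 0.00056, and its lower tail is short.

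Zfp101 (ENSMUSG00000055240, chr17:33360507-33394641, minus strand, mm10) had the smallest adjusted p of all members. It encodes a KRAB factor with 12 fingers. Its level was 27.1 and 22.5 CPM in P30 wild type, 46.1 and 49.6 CPM in P100 wild type, and 24.1 and 22.9 CPM in P30 heterozygotes. Both P100 libraries stood above all the others. The rise was 1.94-fold (log2 0.95, SE 0.11, adjusted p = 0.00022, edgeR quasi-likelihood test). In the authors' deposited table its log2 difference was 0.95. At an adjusted p under 0.05, that table held 12 of the 240 member transcripts as higher and 1 as lower with age. With genotype it held 1 as higher and 1 as lower.

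Zfp39 (ENSMUSG00000037001, chr11:58888153-58904225, minus strand), also a KRAB gene with 12 fingers, went from 11.4 and 11.3 CPM to 20.05 and 22.0 CPM, with 18.2 and 14.9 CPM in heterozygotes. The 3 groups did not overlap. The age difference was log2 0.89 (SE 0.14, adjusted p = 0.0020, edgeR). An antisense gene covers 11.4% of its exon bases, and the use of strand in counting was not given in the sources used here.

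Zfp873, Zfp112, Zfp51, Zfp867, Zfp786 and Zfp810 made up the rest of the 8 largest rises, all with the KRAB pattern and 10 to 19 fingers. Zfp873, the largest, went from 4.66 and 4.73 CPM to 8.61 and 10.03 CPM (log2 0.98, SE 0.18, adjusted p = 0.0059, edgeR). Zfp112 went from 12.2 and 12.4 CPM to 22.1 and 20.6 CPM. Zfp51 went from 4.66 and 5.77 CPM to 8.98 and 9.33 CPM. In these 3 genes, as in the rest of the 8, the 2 ages did not overlap. Zfp867, Zfp786 and Zfp810 rose by log2 0.76, 0.75 and 0.74. The call of Zfp51 was lost with DESeq2, with counts summed over transcripts and after a GC correction (adjusted p = 0.053, edgeR). Zfp867 lost its call with summed counts and Zfp786 with DESeq2.

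Among the 32 members with a listed role, 4 (12.5%) rose and none fell, against 3.0% and 4.54% of all tested genes. Zfp644 went from 388 and 384 CPM to 508 and 509 CPM, a rise of log2 0.40 (SE 0.06, adjusted p = 0.0022, edgeR). Zfp292, a large factor mutated in human neurodevelopmental disorders, went from 189 and 200 CPM to 244 and 250 CPM (log2 0.34). Zfp143, an activator bound at many promoters, went from 17.4 and 17.2 CPM to 26.6 and 25.3 CPM (log2 0.58). Zfp110, which encodes an interactor of the p75 neurotrophin receptor, went from 16.4 and 15.5 CPM to 20.8 and 24.9 CPM (log2 0.51). In none of these 4 genes did the ages overlap.

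Other members with listed roles did not pass the test. The imprinting factor Zfp57 read 15.8 and 19.0 CPM at P30 and 12.3 and 12.1 CPM at P100 (log2 -0.52, adjusted p = 0.054, edgeR). After the GC correction described below, Zfp57 was called lower. Zfp445, the other imprinting factor, had a log2 difference of -0.12. Zfp809, which silences retroviruses through their primer binding site, had 0.28, and Zfp91, a ubiquitin ligase gene, 0.0034. The GC-box factor gene Zfp148 and the RNA-binding Zfp106 had 0.17 and 0.02.

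Both called falls were of about 2-fold. Zfp189 (ENSMUSG00000039634, chr4:49521176-49531517, plus strand), studied in prefrontal cortex for its part in stress resilience, went from 15.9 and 18.3 CPM in P30 wild type to 6.88 and 9.59 CPM in P100 wild type. Its heterozygous P30 levels were 11.2 and 9.63 CPM, so both other groups lay below wild-type P30. The age difference was log2 -1.07 (SE 0.17, adjusted p = 0.0023, edgeR). Zfp948 (ENSMUSG00000067931, chr17:21567008-21588699, plus strand), a KRAB gene with 15 fingers, went from 33.8 and 46.2 CPM to 20.8 and 18.6 CPM, with 23.5 and 23.3 CPM in heterozygotes. Its order was the same, and its age difference log2 -1.03 (SE 0.14, adjusted p = 0.00074, edgeR). In the authors' deposited table Zfp948 had an adjusted p of 0.058.

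**Figure D2:**
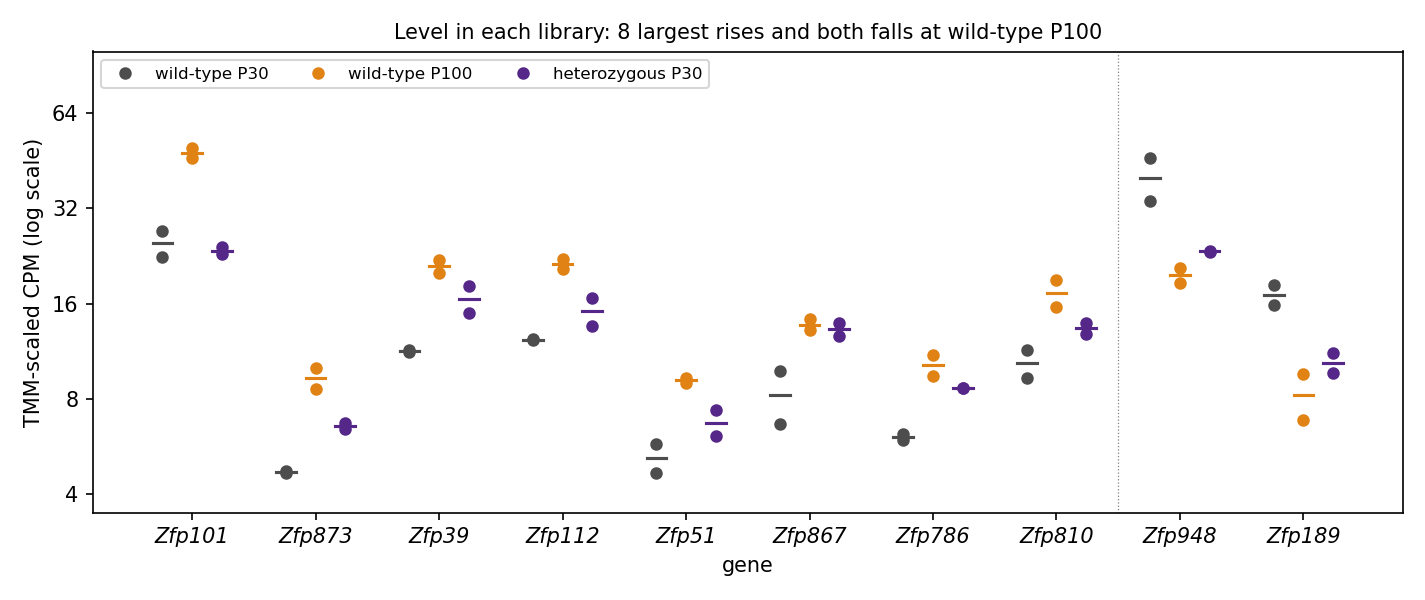
TMM-scaled CPM (log axis) in each of the 6 libraries for the 8 largest called rises and both called falls in P100 wild type, with a short line at each group's mean. P100 points lie above P30 points in the 8 genes on the left and below them in Zfp948 and Zfp189, where the heterozygous P30 points lie nearer to P100 than to wild-type P30.

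Leaving out a library lowered the count of higher members, while the lower members stayed between 2 and 4. Each of these fits also called fewer of all tested genes higher. A fit without a wild-type library leaves 1 library in that group and fewer degrees of freedom. Zfp39, Zfp62, Zfp101, Zfp112, Zfp189, Zfp644, Zfp948 and Zfp961 were called under all 18 alternative fits.

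**Figure D3:**
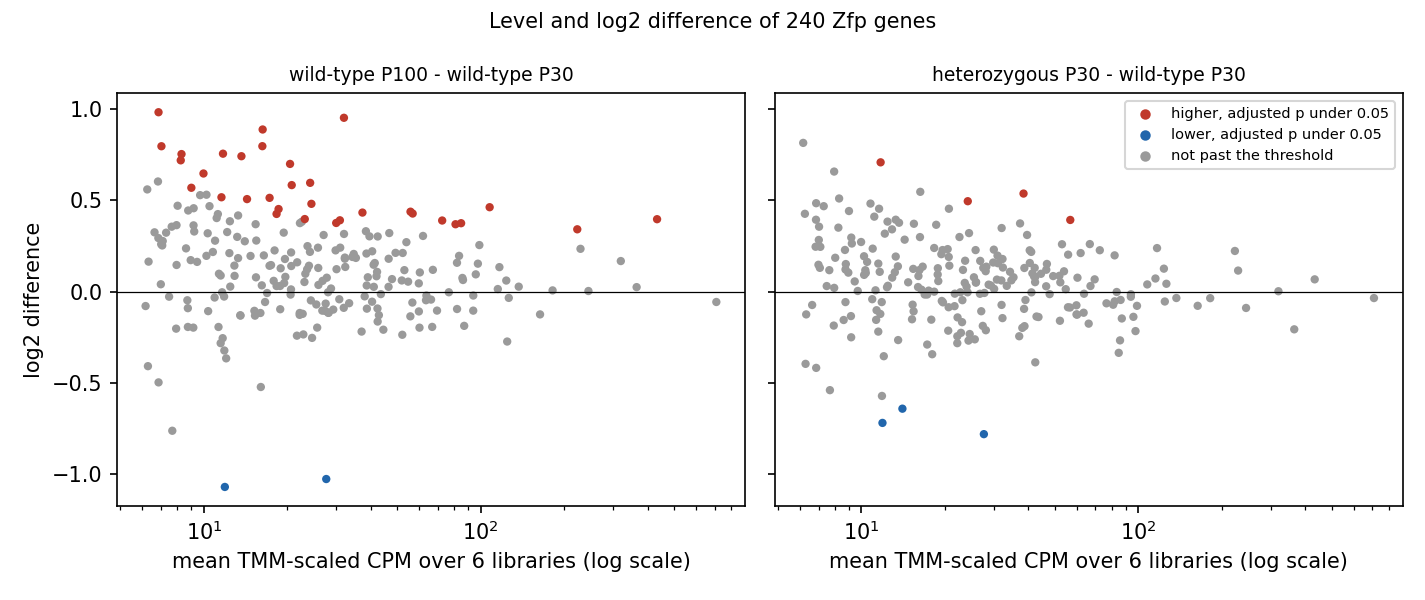
Log2 difference (y axis) by mean TMM-scaled CPM over 6 libraries (x axis, log scale) for 240 Zfp genes, by age (left) and genotype (right). With age 32 members are called higher (red) and 2 lower (blue), over levels from 6.86 to 433 CPM, and with genotype 4 and 3.

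Promoters of 2 rises and both falls with age are shown as examples. They are RefSeq sequences of build GRCm38.p6, from 250 bases before to 50 after the start, 5′ to 3′ on the gene's strand. They lie at chr17:33394588-33394887 (Zfp101), chr11:58904176-58904475 (Zfp39), chr17:21566728-21567027 (Zfp948) and chr4:49520926-49521225 (Zfp189). Capitals mark matches, on either strand, to the CCAAT box, the GC box GGGCGG, the ETS core CCGGAA, the YY1 motif AAGATGG, the cAMP response element core TGACG and the TATA box TATAAA. The full cAMP element TGACGTCA, which contains its core, the AP-1 site TGACTCA and the NRF1 motif were searched too and did not occur in these 4.
Zfp101: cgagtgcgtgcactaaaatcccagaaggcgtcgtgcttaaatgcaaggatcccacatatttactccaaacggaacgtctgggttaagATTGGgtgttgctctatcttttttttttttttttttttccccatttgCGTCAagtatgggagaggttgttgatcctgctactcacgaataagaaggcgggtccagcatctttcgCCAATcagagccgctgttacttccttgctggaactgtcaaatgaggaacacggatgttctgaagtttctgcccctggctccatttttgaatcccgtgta
Zfp39: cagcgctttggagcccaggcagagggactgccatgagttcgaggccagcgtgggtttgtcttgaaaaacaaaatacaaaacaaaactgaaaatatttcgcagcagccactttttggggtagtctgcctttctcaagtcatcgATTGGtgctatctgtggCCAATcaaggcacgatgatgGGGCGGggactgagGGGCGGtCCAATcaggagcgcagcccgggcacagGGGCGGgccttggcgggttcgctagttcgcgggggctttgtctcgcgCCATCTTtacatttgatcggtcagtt
Zfp948: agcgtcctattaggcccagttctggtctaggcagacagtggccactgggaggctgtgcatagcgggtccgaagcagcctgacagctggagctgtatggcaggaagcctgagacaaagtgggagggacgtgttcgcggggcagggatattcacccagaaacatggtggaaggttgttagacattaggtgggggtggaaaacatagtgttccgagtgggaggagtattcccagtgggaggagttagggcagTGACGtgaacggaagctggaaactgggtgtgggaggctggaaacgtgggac
Zfp189: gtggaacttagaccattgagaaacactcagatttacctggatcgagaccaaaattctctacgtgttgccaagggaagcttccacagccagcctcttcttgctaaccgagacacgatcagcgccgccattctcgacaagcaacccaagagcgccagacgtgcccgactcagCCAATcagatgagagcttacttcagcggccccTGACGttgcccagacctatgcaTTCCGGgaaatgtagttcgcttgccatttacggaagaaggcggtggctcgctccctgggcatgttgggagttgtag

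Zfp39 held 3 GC boxes and an AAGATGG match, and TGACG was present in Zfp101, Zfp948 and Zfp189. A RefSeq promoter was matched for 196 of 240 members, 157 of them within 100 bases of the start of the transcript counted. The median member promoter had 16 CpG dinucleotides, against 7 over 27025 genes. Those genes were taken whether or not they were expressed here, each with its first listed promoter. Members were kept for their counts and given the promoter nearest to the transcript counted, so the sets compared below are unlike. CCGGAA was found in 36.2% of member promoters and 15.2% of all, TATAAA in 6.12% and 14.2%, GGGCGG in 48.5% and 35.9%, and TGACG in 35.7% and 21.0%. TGACGTCA was found in 2.04% and 1.88%, the NRF1 motif in 4.59% and 0.977%, and TGACTCA in 3.57% and 5.17%. Of the 31 members called higher at P100 that had a promoter, 25.8% held AAGATGG (10.2% of all member promoters, 6.47% of all genes), 58.1% CCAAT (42.4% and 37.9%) and 29.0% TGACG. A match is a description of letters, and these shares were not tested.

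KRAB genes made up most of the rises. With the KRAB pattern, 22 of 110 members were higher and 1 lower at P100, with a median log2 difference of 0.21. Without it, 10 of 129 were higher and 1 lower, with a median of 0.06. By number of fingers, 23 of 136 members with 10 or more were higher, 9 of 90 with 2 to 9 and none of 13 with 0 or 1, with medians of 0.18, 0.07 and -0.06. The difference between these subsets was not tested.

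Base composition moved with both the KRAB pattern and the difference. Transcript GC content of members ran from 34.4% to 68.7% with a median of 46.7%, against 49.95% for all tested genes. It was 43.3% in members with the KRAB pattern and 50.2% without, and 41.7% in members called higher at P100 and 47.6% in the others. Across the 240 members GC content and the age difference had a Spearman rho of -0.36 and a Pearson r of -0.28, and across 15510 tested genes -0.18 and -0.16. Genes share the same 6 libraries and are not independent replicates.

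Set against genes of like GC content, members had the higher median in each quartile. In the lowest quartile of all tested genes (up to 45.3% GC), 23 of 105 members (21.9%) were higher and 2 lower, with a median of 0.20, and 5.21% of all 3878 genes there were higher, with a median of 0.06. In the second quartile the medians were 0.08 for members and 0.01 for all genes, in the third 0.08 and -0.02, and in the highest 0.03 and -0.06. Of all genes in these quartiles 2.86%, 2.45% and 1.52% were higher. Within the lowest quartile, members with the KRAB pattern had 18 of 69 higher and a median of 0.31, and those without had 5 of 36 and 0.10. In the second quartile the order was the reverse, with medians of 0.03 with the pattern (2 of 23 higher) and 0.08 without (2 of 26). In the third the medians were 0.21 (2 of 12 higher) and 0.03 (1 of 31). In the highest they were 0.07 (0 of 6) and 0.02 (2 of 36).

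After a correction for the GC trend within libraries, 20 members were higher and 4 lower, with a median of 0.09, and 2.49% of all tested genes were higher. Zfp101 kept a log2 difference of 0.84 and Zfp39 one of 0.84, while Zfp189 and Zfp948 stood at -1.12 each. Among members with a listed role, Zfp57 (log2 -0.56, adjusted p = 0.046, edgeR) and Zfp281 (-0.34, adjusted p = 0.042) were called lower as well. Zfp536 was called higher only after the correction (log2 0.44, adjusted p = 0.045, edgeR), and the rise of Zfp110 no longer passed (adjusted p = 0.052). The difference of GC content between libraries and its part in the members' values beyond this correction was not tested.

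**Figure D4:**
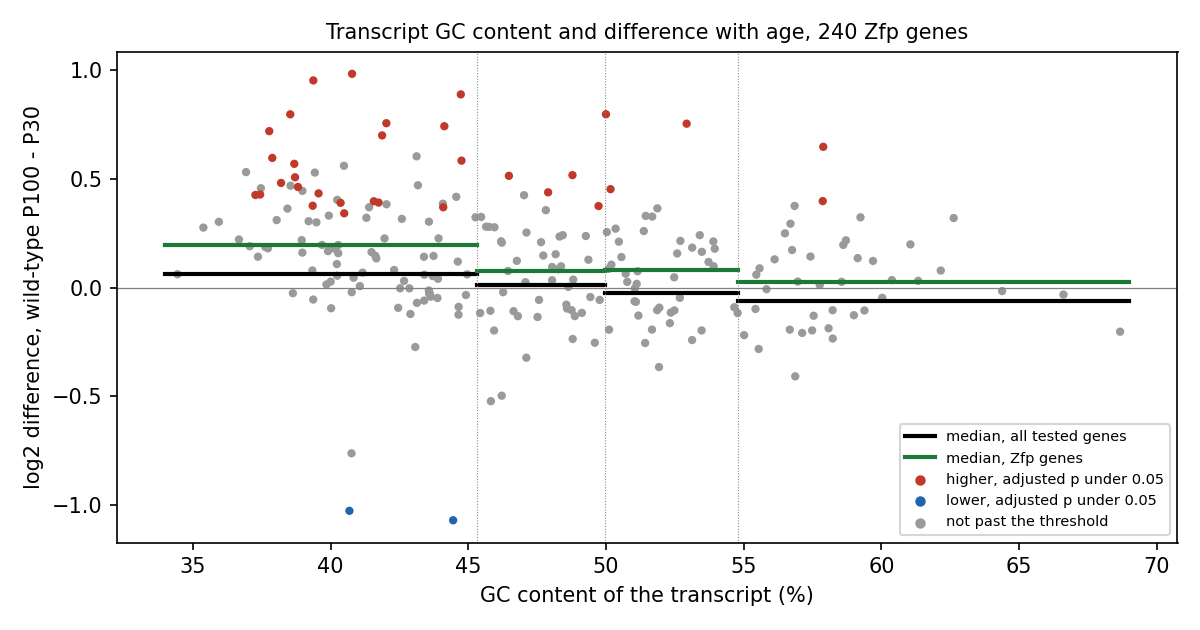
Log2 difference between wild-type P100 and P30 (y axis) by transcript GC content (x axis, %) for 240 Zfp genes, coloured by call, with quartile medians of members (green) and all tested genes (black) between dotted quartile limits. Called rises gather at low GC content, and the green line lies above the black one in all 4 quartiles, by 0.20 against 0.06 in the lowest.

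Members were grouped into chromosomal clusters where each start lay within 500 kb of the next, keeping groups of 4 or more. There were 12 such clusters with 92 members. Of these, 17 (18.5%) were higher and 1 lower at P100, with a median of 0.20. Of the 148 other members 15 (10.1%) were higher and 1 lower, with a median of 0.06. The shares over all tested genes were 3.0% higher and 4.54% lower. The KRAB pattern was present in 62 clustered members and in 48 others, and median GC content was 44.0% and 47.6%, so cluster, KRAB pattern and composition moved together and their parts were not tested.

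The clusters are described one by one, and differences between them were not tested. The largest, on chr17:21008903-23599487, held 13 members, 12 of them with the KRAB pattern. Zfp51, Zfp760 and Zfp944 were higher there and Zfp948 lower, and the median was 0.28. After the GC correction the fall of Zfp948 was the only call left in this cluster, whose median GC content was 37.7%. A second chromosome 17 cluster, chr17:32765496-33631779, held 9 members, among them Zfp101, Zfp81 and Zfp763, all higher, with a median of 0.30, and of these Zfp101 alone passed after the GC correction. On chr13:67038596-67687071, Zfp708, Zfp712 and Zfp759 of 7 members were higher (median 0.31), and no call was left there with DESeq2 or after the GC correction (adjusted p 0.053, 0.17 and 0.11 after the correction, edgeR). All exon bases of Zfp708 are shared with another annotated gene, Gm28557, so its reads could belong to either.

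Chromosome 7 held 59 of the 240 members in several clusters. On chr7:12415153-12974236 Zfp110, Zfp551 and Zfp606 of 6 members were higher, with a median of 0.39. Those 3 calls were also lost with DESeq2 and after the GC correction (adjusted p 0.052, 0.053 and 0.12 after the correction, edgeR). On chr7:24081924-24515682 Zfp112 and Zfp180 of 10 were higher (median 0.27), and both passed after the GC correction. None of 12 members on chr7:29768552-30169750, with 8 carrying the KRAB pattern, was called, and their median of 0.08 was close to the 0.12 of all members. That cluster includes Zfp568, a repressor of Igf2 in the embryo, with a log2 difference of -0.32. None of 7 members on chr7:127233061-127885996 was called either (median 0.12). Tested genes other than members were also counted within each span. They can include Zfp genes below the total for members, as 306 Zfp genes passed the filter, and other zinc finger genes. In the first chromosome 17 cluster 2 of 8 such genes were higher (median 0.61), and in the chromosome 13 cluster none of 11 (median 0.40). On chr7:127233061-127885996 none of 24 was higher and 1 lower (median -0.07), and on chr7:24081924-24515682 none of 3 was higher and 1 lower (median -0.305). In the second chromosome 17 cluster none of 7 was higher (median 0.08), and on chr7:12415153-12974236 1 of 5 was (median 0.27). On chr7:29768552-30169750 the median was 0.08, and in the chromosome 6, 8 and chr9:22055411-22307648 clusters 0.01, 0.35 and -0.006.

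**Figure D5:**
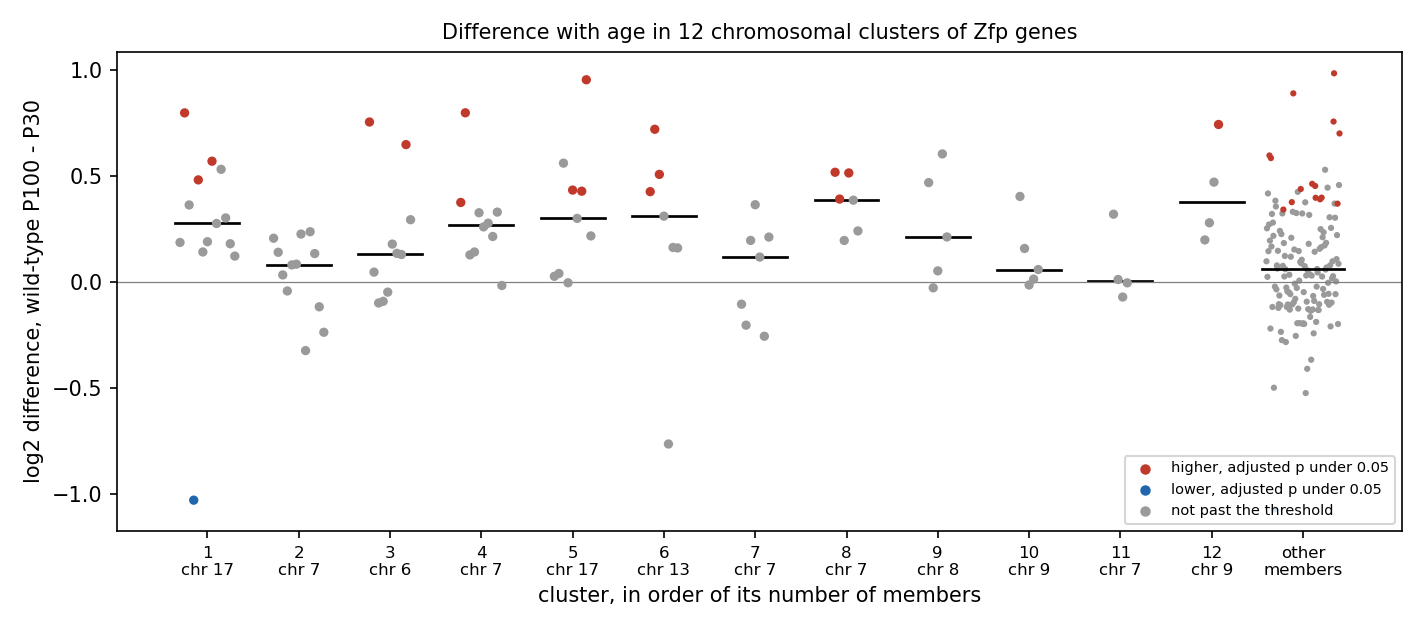
Log2 difference between wild-type P100 and P30 (y axis) of each member in the 12 chromosomal clusters, ordered by size, and of the 148 other members at the right, with a line at each median. Cluster 8 on chromosome 7 has the highest median, 0.39, while cluster 2, with 12 members and no call, has 0.08.

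The second comparison set P30 heterozygotes against P30 wild type and asked what changes with 1 copy of Otx2 at the juvenile age. It shares the wild-type P30 libraries with the first, and it is confounded with sex, as above. Few members were called. Of 240, 4 (1.67%) were higher and 3 (1.25%) lower in heterozygotes, against 0.903% and 2.32% of all tested genes, so the shares were near the background. Of tested genes with 500 or more counts, 1.04% were higher and 2.97% lower. The median log2 difference was 0.05 (all tested genes 0.0029), and groups lay apart upward in 84 of 240 members and downward in 41, against 24.5% and 24.4% of all tested genes.

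All 4 higher members had the KRAB pattern. Zfp386 read 28.8 and 33.3 CPM in wild type and 46.1 and 44.3 CPM in heterozygotes (log2 0.54, SE 0.11, adjusted p = 0.014, edgeR). Zfp120 read 18.9 and 18.1 CPM against 25.7 and 26.4 CPM (log2 0.50). Zfp867 and Zfp81 were higher by log2 0.71 and 0.39. Groups did not overlap in any of the 4. The calls of Zfp386, Zfp867 and Zfp81 were lost with counts summed over transcripts, and those of Zfp867, Zfp81 and Zfp120 after the GC correction. With DESeq2 Zfp867 and Zfp120 lost theirs. Zfp867, Zfp81 and Zfp120 were also among the rises at P100, with log2 differences of 0.76, 0.43 and 0.60, and Zfp386 had 0.33 there without passing the test.

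The 3 lower members were Zfp948 (log2 -0.78, SE 0.14, adjusted p = 0.0062, edgeR), Zfp189 (-0.72, adjusted p = 0.028) and Zfp758 (-0.64, adjusted p = 0.025). The library values of the first 2 are given above. Zfp758, a KRAB gene of the first chromosome 17 cluster, read 15.1 and 14.5 CPM in wild-type P30, 8.51 and 10.4 CPM in heterozygous P30 and 17.4 and 18.4 CPM in wild-type P100. It was thus lowest in heterozygotes and did not pass the test for age (log2 0.28, adjusted p = 0.25). All 10 myelinating oligodendrocyte and all 12 activity-regulated markers were lower in heterozygotes as well, and their part was not tested. None of the 4 members on the X chromosome, Zfp182, Zfp275, Zfp449 and the intellectual disability gene Zfp711, was called in any comparison (smallest adjusted p 0.35, edgeR).

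These calls moved when a library was left out. Leaving out a heterozygous library, among them the one with Ttr, or a wild-type P30 library leaves 1 library in that group and fewer degrees of freedom. In each of these fits fewer members were called higher, and fewer of all tested genes were called higher too. None of the 7 calls held under all 18 alternative fits, and the call of Zfp948 was lost only without wild-type P30 replicate 2.

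Heterozygous P30 against wild-type P100 shares libraries with both other comparisons. Here 3 members (1.25%) were higher and 16 (6.67%) lower in heterozygous P30 tissue, against 2.44% and 2.66% of all tested genes and 3.04% and 3.31% of those with 500 or more counts. The median was -0.06, and groups lay apart upward in 40 members (16.7%) and downward in 93 (38.8%), against 25.4% and 25% of all tested genes. Layer IV, oligodendrocyte and activity-regulated markers moved in the same libraries: 3 of 6 layer IV markers were lower in heterozygous P30 tissue, and 6 of 10 myelinating oligodendrocyte, 3 of 6 oligodendrocyte precursor and 4 of 12 activity-regulated markers were higher. Their part was not tested. The falls ranged from log2 -1.03 to -0.33. Zfp101 led them (log2 -1.03, SE 0.11, adjusted p = 0.00019, edgeR), followed by Zfp758 at -0.92 and Zfp110 at -0.80. Zfp180 read 67.8 and 63.0 CPM in heterozygotes and 103 and 112 CPM in P100 wild type (log2 -0.71), with 74.5 and 90.1 CPM in P30 wild type. Zfp52, Zfp277 and Zfp536, the last a brake on neuronal differentiation, followed at -0.61, -0.57 and -0.52, and Zfp112 at -0.50.

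The 3 higher members were Zfp41 (log2 0.89), Zfp57 (0.61) and Zfp46 (0.45). Zfp57 read 20.8 and 16.4 CPM in heterozygotes and 12.3 and 12.1 CPM in P100 wild type (adjusted p = 0.031, edgeR). The groups did not overlap, and wild-type P30 lay within the heterozygous range in 1 of its libraries. Zfp46 read 79.2 and 77.0 CPM against 54.7 and 59.4 CPM, and Zfp41, the least abundant member, 8.11 and 9.37 CPM against 3.33 and 6.25 CPM. Fewer members were called higher and fewer lower when either P100 library or either heterozygous library was left out. The same held for all tested genes in those fits. Zfp101, Zfp180 and Zfp758 were called under all 18 alternative fits.

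Genes that work with KRAB factors were read from a list of corepressor and heterochromatin partners. Of 30 tested, none was higher and 2 (6.67%) lower at P100, against 4.54% of all tested genes lower, and none was called with genotype. Their median log2 difference with age was 0.04. Trim28, which encodes the KRAB corepressor, read 72.9 and 71.0 CPM in P30 wild type, 71.1 and 76.9 CPM in P100 wild type and 71.9 and 71.7 CPM in P30 heterozygotes, so that its groups overlapped. Setdb1, its H3K9 methyltransferase, had an age difference of 0.02. The 2 lower genes were Dnmt3a, a de novo DNA methyltransferase, from 223 and 229 CPM to 155 and 156 CPM (log2 -0.54, adjusted p = 0.00027, edgeR), and the remodeller gene Chd3 (log2 -0.51). Both were higher in heterozygous P30 than in wild-type P100 tissue, by log2 0.47 and 0.52, and made up the 6.67% called higher there, against 2.44% of all tested genes.

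Zinc finger genes under other names were examined by symbol, as Zkscan, Zscan and Zbtb genes. Of 54 tested gene entries, 6 (11.1%) were higher and 1 (1.85%) lower at P100, against 3.0% and 4.54% of all tested genes. The median log2 difference was 0.10, beside 0.12 for the Zfp genes, of which 13.3% were higher. With genotype 1 entry was higher and 1 lower (1.85% each), against 0.903% and 2.32% of all tested genes. In heterozygous P30 against wild-type P100 none was higher and 3 (5.56%) were lower, against 2.44% and 2.66%. Zkscan16, a KRAB and SCAN domain gene, went from 39.7 and 42.1 CPM to 65.6 and 72.2 CPM (log2 0.75, SE 0.10, adjusted p = 0.00045, edgeR). Zbtb20, a repressor with a part in hippocampal development, rose by 0.47 in 1 of its 2 gene entries, while the other went from a mean of 15.9 to 20.5 CPM and did not pass (log2 0.37, adjusted p = 0.15, edgeR), and Zbtb10 fell by 0.50 on the log2 scale.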

How the data were processed

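RNA-seq libraries of layer IV visual cortex were analysed from 6 of 8 samples. The authors deposited raw read counts per transcript, per the file headers. Bowtie, HTSeq and DESeq 1.8.3 were used with build mm10, per the submitters' processing notes; settings, strand and annotation release are not given in the sources used here. Separately, the authors' deposited table of comparisons held log2 fold changes and adjusted p-values, per the file headers, and was used only where named.

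Each gene was represented by its transcript with the most counts. Transcripts without a gene (13.96% of counts) were left out. Counts were filtered (filterByExpr, minimum count 10, total 15), TMM-scaled and tested in edgeR 4.0.16 (R 4.3.3) by the quasi-likelihood test with 3 groups and 3 residual degrees of freedom, with Benjamini-Hochberg adjustment over 15841 genes at 0.05. CPM are TMM-scaled. Sequence features came from GENCODE M21. The members and lists were chosen with earlier results of these data known. Named members were the 8 largest called rises and falls per comparison, the most abundant, those with listed roles, those in clusters and on X, and neighbours of the threshold.

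The fitting code was tested on simulated data for each comparison. Replicates differed by more than sampling noise (chi-square per degree of freedom 4.17 to 5.40). Alternatives were RLE and upper-quartile scaling, other filters, DESeq2 1.42.0, limma 3.58.1 (voom), summed transcripts, GC and length corrections, a replicate block and leaving out each library.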

Additional observations from a re-analysis of the deposited data

How the results depend on the processing

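The counts of called members and the members' median differences both moved with processing. No median changed its sign in the 18 alternative fits, and no named gene's called direction reversed. For age (32 higher, 2 lower), DESeq2 gave 19 higher, counts summed over transcripts 18 and the GC correction 20. Of all tested genes 1.82%, 1.81% and 2.49% were higher in those fits. Lower members were 5 without a filter and 4 with the GC correction, against 4.56% and 4.18% of all tested genes. Leaving out 1 library gave 8 to 25 higher and 2 to 4 lower. For genotype (4 and 3), higher members were 9 without a filter, 7 with the length correction, 2 with DESeq2, 1 with summed counts and 1 with the GC correction. Of all tested genes 1.63%, 1.12%, 0.543%, 0.433% and 0.821% were higher in those fits. Lower members were 6 without a filter and 1 with DESeq2, against 3.03% and 1.95% of all tested genes. Leaving out 1 library gave 0 to 4 higher and 0 to 5 lower. For heterozygous P30 against wild-type P100 (3 and 16), DESeq2 gave 1 higher, where 1.81% of all tested genes were higher. Summed counts gave 10 lower, where 1.56% of all tested genes were lower. Leaving out 1 library moved both counts. Fewer libraries leave fewer degrees of freedom, and a lone library is assumed to vary like the other groups. The cause of the other changes was not tested. Counting members with little sequence in common with other genes, an alternative chosen after seeing the data, gave 28 higher and 2 lower with age.

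Replicate numbers shared between groups did not pair the libraries: same-numbered libraries deviated together with correlations of 0.018, 0.13 and 0.011. With a replicate block, 29 members were higher and 3 lower with age, 5 and 4 with genotype, and 3 and 19 in heterozygous P30 against wild-type P100. The block with the GC correction gave 22 higher and 5 lower with age and 2 higher with genotype. With 2 libraries a group and 3 residual degrees of freedom, a member without a call is not shown to be equal between groups.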
